A study of Macaca fuscata with 12 samples.

Results

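Gene expression around the intraparietal sulcus (IPS) was compared between monkeys trained in tool use and control animals. Of the 12 arrays in the series, the 6 that held IPS tissue form this comparison, with 3 trained and 3 control animals. Every IPS array came from the left hemisphere of a different male Japanese macaque (Macaca fuscata), and no genetic change or drug is given for any animal. The controls were aged 5 years 4 months, 5 years 10 months and 3 years 9 months. The trained animals were aged 5 years 7 months, 6 years 0 months and 5 years 1 month. The labels name the training as tool use and give neither its length nor what the controls did. The other 6 arrays held tissue around the lateral sulcus (SII), and 4 of the 6 IPS animals (controls 1 and 2, trained 1 and 3) gave that tissue too. All 52766 probe sets that are not array controls were used, and an array's value is given in log2 units from the probe set's own median over the 12 arrays.

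The cortex of the intraparietal sulcus joins touch, vision and hand movement, and its neurons are known for extending their visual fields along a tool that the hand has learned to use. Learning of this kind is thought to involve activity-driven genes, growth of axons and spines, remodelling of synapses and matrix, and support from glia and vessels. The genes below are ordered by these roles, after those whose several probe sets moved together.

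The arrays were not alike in quality. The spiked hybridisation controls were raised in trained 3 (0.44) and lay between -0.13 and -0.02 on the remaining arrays. The gap between the 3' and 5' actin probe sets, which tracks RNA quality, was 0.02 to 0.23 in the controls and -0.79, 0.54 and 1.37 in the trained arrays. The alpha globin gene HBA, a sign of blood, lay at 2.33 in IPS trained 1, at 0.96 in IPS control 2 and between -0.23 and 0.22 in the other 4. Many dim probe sets carry an array's lowest possible value, here called the floor, which is only an upper limit. The floor lay at 0.00 to 0.10 in the controls (relative to control 1) and at 0.14 to 0.58 in the trained arrays, so all trained floors lay above all control floors. The part of these features in the results was not tested. Values without single arrays are given for some genes and lists only, so a value given alone need not be stable. The centring of the deposited values removes levels, so no marker could be seen as present or absent. A rough signal class (high at 256 or more, middle at 16 or more, low below) could be recovered, and of 15 measured markers of excitatory neurons 4 were high, 11 middle and 0 low, while of 19 HOX genes, which the cortex is not expected to use, 0 were high and 14 low.

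No gene or probe set passed the test in IPS. In limma with Benjamini-Hochberg adjustment, 0 of 52766 probe sets (0.0%) had an adjusted p under 0.05, the smallest being 0.402, and 0 of 13039 genes (0.0%) did, the smallest being 0.9996. Unadjusted p under 0.05 were reached by 1726 probe sets (3.27%; 1.81% higher and 1.46% lower) and by 351 genes (2.69%), of which 190 were higher in trained animals (1.46%) and 161 lower (1.23%). All 3 trained values lay above all 3 control values in 580 genes (4.45%) and below them in 421 (3.23%), together 7.68%. Over probe sets these shares were 5.77% and 3.72%, together 9.49%. A gene's value here is the mean of its probe sets with no floor found, and 53.6% of genes had a change above 0 and 46.4% below, with a median of 0.02. Of probe sets 51.7% were above 0 and 48.3% below. With 3 arrays a group an exact permutation test cannot give a p below 0.10, so the values that follow describe these 6 arrays, and no gene is called changed.

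Weight was given to genes for which several probe sets told the same story. Of 5530 genes with at least 2 usable probe sets, 42.0% had all of them on 1 side of 0, and 28 (0.506%) also had at least 2 with groups that did not overlap. These were 20 higher (0.362%) and 8 lower (0.145%), and 2 of the higher ones are locus names. Since this selection used the same values, what follows on these genes is a description. The balance of the directions rests on the scaling, since quantile normalization of the arrays gave 15 higher and 20 lower and median centring gave 17 and 15.

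CLCN3, an exchanger of chloride and protons in endosomes and synaptic vesicles, had 4 usable probe sets, all on the higher side. Its gene values were -0.44, -0.40 and -0.29 in the controls and 0.47, 0.38 and 0.11 in the trained animals. All trained arrays lay above all controls, with trained 3 nearest to them. The change was 0.69 ± 0.20 (SE, n = 3 per group; limma p 0.00563, adjusted p 0.9996). Its 4 probe sets had changes of 0.93 ± 0.21, 0.71 ± 0.31, 0.56 ± 0.42 and 0.55 ± 0.75, and in 3 of them the groups did not overlap. The first and the last of these carry the same target number and may share sequence. Over all alternatives the change of CLCN3 ran from 0.60 to 0.83.

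PPTC7 encodes a phosphatase of the mitochondrial matrix. It lay at -0.16, -1.51 and -0.75 in the controls and at 0.81, 0.90 and 0.45 in the trained animals. The trained values lay close together, while the controls spread over more than 1 log2 unit. The change was 1.52 ± 0.33, or 2.87-fold, from probe sets at 2.79 ± 0.72, 1.66 ± 0.29 and 0.12 ± 0.23. The probe set at 0.12 overlapped between the groups, and with only high and middle signals the gene's change was 0.89.

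SLC6A6, the taurine transporter, lay at -1.42, -1.67 and 0.003 in the controls and at 0.64, 0.80 and 0.67 in the trained animals. Control 3 stood nearer to the trained animals than to the other controls. Both usable probe sets had a low signal, with changes of 2.18 ± 0.73 and 1.25 ± 0.67. A further probe set, with floor values, had a change of -0.75 ± 0.93, and with it included the gene's change was 0.89 in place of 1.69 ± 0.48.

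LMO4, a transcriptional cofactor of cortical neurons, had 0.47 ± 0.20, or 0.32 without control 2. Its middle-signal probe set had 0.84 ± 0.40 and its high-signal one 0.10 ± 0.22. ELP5, a subunit of the Elongator complex that modifies transfer RNA, had 0.41 ± 0.17. The ELP5 controls lay at -0.07, -0.41 and -0.30 and the trained animals at 0.16, 0.16 and 0.16. These are means of 2 probe sets that ran opposite ways over the trained arrays, so neither was as even. They lay at -0.001, 0.27 and 0.16 and at 0.32, 0.04 and 0.17. GART, an enzyme of purine synthesis, had 0.76 ± 0.36 over 4 probe sets that ranged from 0.16 to 1.62. PEDS1, which makes plasmalogen lipids, had 0.87 ± 0.43, and here 1 animal set the size. Its trained values were -0.19, 1.25 and -0.07, against -0.45, -0.54 and -0.59 in the controls, and without trained 2 the change was 0.42. RABGAP1L, a regulator of Rab proteins, had 0.48 ± 0.22. Its probe sets had 0.74 ± 0.26 (middle signal), 0.64 ± 0.50 (low) and 0.07 ± 0.21 (high). UBE2D3, a ubiquitin-conjugating enzyme, had 0.30 ± 0.18 over 4 high-signal probe sets at 0.03 to 0.48. EPB41L4A, FNTB (a subunit of protein farnesyltransferase), CSNK1A1 (casein kinase 1 alpha), ZNF503, RPL35A and AP1S1 (a small subunit of the AP-1 clathrin adaptor) had changes from 0.19 ± 0.19 for AP1S1 to 0.69 ± 0.46 for ZNF503.

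Among the lower genes the probe sets of LRRC32, which holds latent TGF-beta at the cell surface, were closest in size, at -0.63 ± 0.32 and -0.68 ± 0.24. The gene lay at 0.28, 0.43 and 0.56 in the controls and at -0.35, 0.03 and -0.36 in the trained animals. No trained value reached a control, and trained 2 was nearest. The change was -0.65 ± 0.22 (limma p 0.0146, adjusted p 0.9996).

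KAT6A, a histone acetyltransferase, lay at 0.92, 0.23 and 0.03 in the controls and at -0.14, -0.43 and -0.67 in the trained animals. Its change of -0.80 ± 0.25 came from probe sets at -1.42 ± 0.48 and -0.19 ± 0.18. Another probe set, with floor values, lay the other way at 1.49 ± 1.23, and with it included the gene's change was -0.03.

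GRHL1, a transcription factor best known in epithelia, had the largest lower change of the 8, -1.33 ± 0.55, with controls at 0.48, 0.48 and 0.57 and trained animals at -0.65, -0.82 and -1.01. Both groups were tight in these means, but the 2 probe sets ran opposite ways over the controls. The controls lay at 0.06, 0.76 and 0.72 in 1 and at 0.91, 0.20 and 0.42 in the other. In that order, the changes differed in size too, at -2.06 ± 0.83 and -0.61 ± 0.38. VPS13D, a lipid transfer protein needed by mitochondria, had -0.46 ± 0.18, or -0.22 with high and middle signals only. Its probe sets had -0.95 ± 0.34 (low signal), -0.40 ± 0.21 and -0.03 ± 0.24. RPTOR, the scaffold of an mTOR complex, had -0.30 ± 0.19. TMEM39A had -0.62 ± 0.34, with trained 2 at -0.91 against 0.13 and 0.03 in the other trained arrays, and -0.28 without it. EXD2 (an exonuclease) had -0.47 ± 0.24, or -0.17 with high and middle signals only, and HERC3 (a ubiquitin ligase) had -0.42 ± 0.25. Of all 23 named genes, 20 had gene values that did not overlap between the groups and 9 had an unadjusted limma p under 0.05. Over all genes these shares were 7.68% and 2.69%. Both counts largely follow from the selection, which asked for probe sets without overlap and ordered genes by p, so they are no result about these genes.

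**Figure D1:**
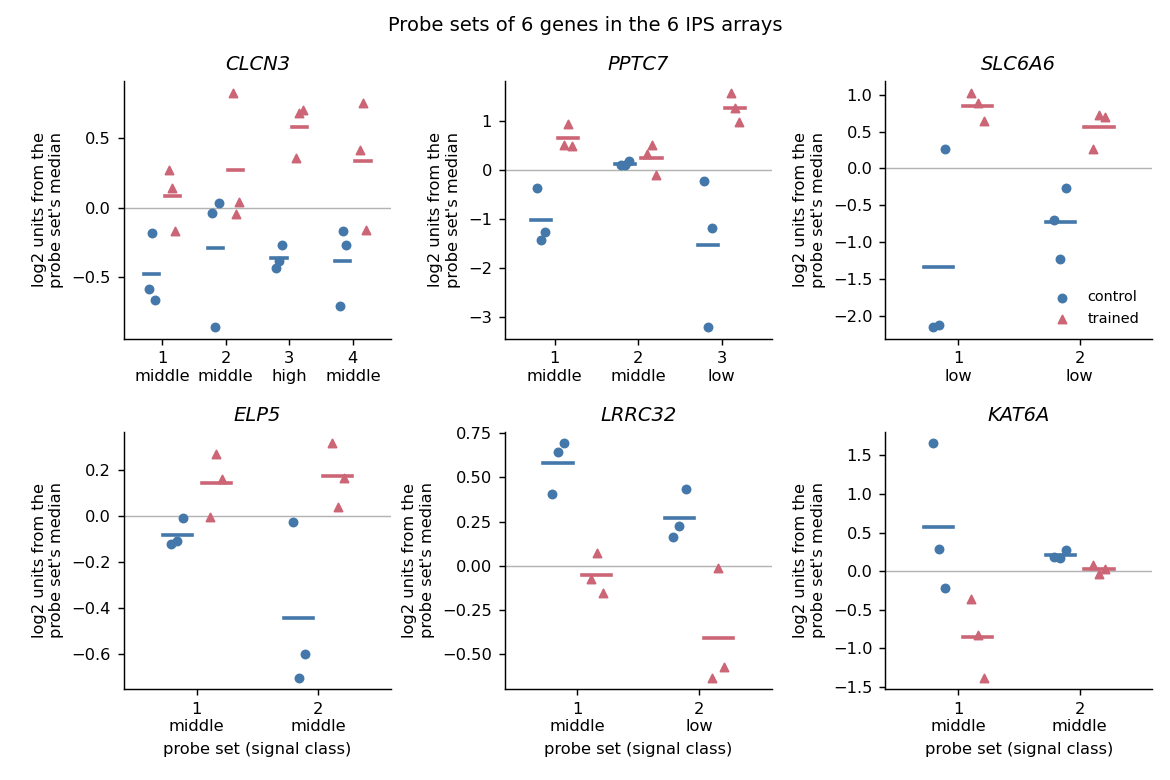
Values of 6 genes with agreeing probe sets, in log2 units from each probe set's median, in the 3 control (circles) and 3 trained (triangles) IPS arrays; bars are group means, and the signal class stands under each probe set. CLCN3 and LRRC32 show changes of like size in their probe sets, while those of PPTC7 (2.79, 1.66 and 0.12) and KAT6A (-1.42 and -0.19) differ in size.

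A further selection took genes with at least 4 usable probe sets, without asking that single probe sets not overlap. Of 853 such genes, 136 (15.9%) had every probe set on 1 side, and the 8 of each direction with the smallest p are named here after their values were seen. HERC2, a large ubiquitin ligase, lay at 0.90, 0.13 and 0.79 in the controls and at -0.08, -0.35 and -0.28 in the trained animals. The groups did not overlap, and the change was -0.82 ± 0.30 from 4 probe sets that ranged from -0.11 to -1.75. TMEM144 had a change of -0.90 ± 0.39 and NOTCH2, a receptor of cell fate signalling, -0.35 ± 0.22, and the gene values of neither overlapped. In every single probe set of HERC2, TMEM144 and NOTCH2, however, the groups overlapped. LYPD3, KIAA0100, RBFA, RDH10 and KDSR had changes from -0.64 ± 0.38 for RDH10 to -0.35 ± 0.20 for RBFA, and their groups overlapped.

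On the higher side, beside CLCN3, GART and PEDS1, SMAD2, a carrier of TGF-beta signals to the nucleus, had 0.44 ± 0.21 over 4 probe sets. Its trained values of 0.18, -0.004 and -0.06 all lay above the controls at -0.58, -0.48 and -0.17. PDE1A, a phosphodiesterase activated by calcium and calmodulin, had 0.73 ± 0.34 over 5 probe sets, but trained 3 at -0.15 lay below control 1 at -0.03. KNOP1 had 0.46 ± 0.20, CCL25 0.41 ± 0.20 and SLC11A1, a metal transporter of phagocytes, 0.62 ± 0.30, each without overlap of the gene values. In every single probe set of SMAD2, KNOP1 and CCL25 the groups overlapped. With high and middle signals only, SMAD2 had 0.13 and CCL25 0.16.

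How far probe sets of a gene went together depended on their signal. Of pairs of high-signal probe sets of the same gene, 498 of 799 (62.3%) had changes of 1 sign, against 2693 of 4925 (54.7%) for middle and 781 of 1520 (51.4%) for low signals. Across these pairs of probe sets, which share the 6 arrays, Pearson's r of the changes was 0.25, 0.13 and 0.03. All probe sets of a gene had 1 sign in 53.6% of genes with 2 of them, 30.4% with 3, 105 of 526 with 4 and 11.2% with 5. A gene read by low-signal probe sets thus had the least agreement between them.

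High-signal probe sets were more often higher than lower in trained animals. Of 4479, 63.2% had a change above 0, with all trained arrays above all controls in 231 (5.16%) and below in 86 (1.92%). The median value of these probe sets was 0.005, 0.03 and 0.02 in the controls and 0.16, 0.11 and -0.05 in the trained arrays. Trained 1 and 2 were thus the high arrays, and trained 3 lay below every control. The share above 0 was 48.9% without trained 1, 72.0% without trained 3 and 56.4% after quantile normalization. In the middle class 48.6% were above 0 and in the low class 48.7%, with 789 against 739 and 781 against 806 non-overlapping probe sets.

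Floor probe sets stood apart from all of these. Of 9905, all trained values lay above the controls in 1245 (12.6%) and below in 330 (3.33%). As given above, the floor itself lay higher in every trained array than in every control. These probe sets are therefore left out of the gene values.

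**Figure D2:**
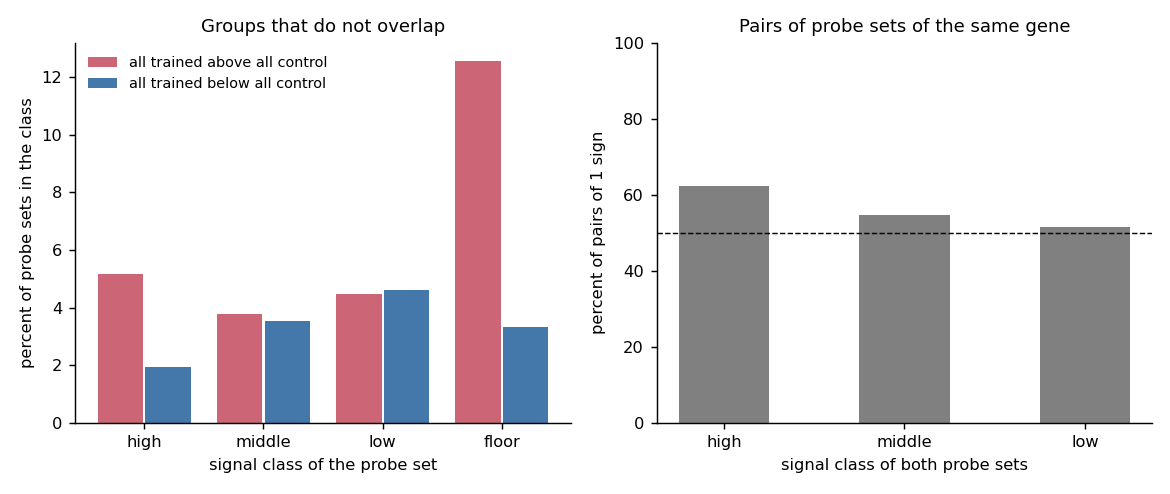
Left, percent of probe sets in each signal class whose trained and control IPS arrays do not overlap, by direction. Right, percent of pairs of probe sets of the same gene whose changes have 1 sign, by the signal class of both, with the dashed line at equal shares of like and unlike pairs. The floor class holds 12.6% with trained above control, and like-signed pairs are most frequent, at 62.3%, in the high class.

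The following 48 lists of genes, 12 of cell type markers and 36 of gene families, held 989 different measured genes. Of these 25 (2.53%) had an unadjusted p under 0.05, beside 2.69% of all genes, and 0 passed after adjustment. For each list the members with the smallest p are named, and others were chosen for their role after their values were seen. The median of 31 of the 48 lists took the other sign in at least 1 alternative. It kept its sign in all of them for 17 lists, among them excitatory neurons, microglia, pericytes, meninges, red blood cells, axon growth, immediate early genes and the vesicle and postsynaptic lists. With 1 array left out, the change of 916 of the 989 genes became over 1.5 times smaller or took the other sign, and some of the larger shifts are given beside the genes. In bulk tissue, fewer cells of a type and less RNA per cell cannot be told apart.

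Markers of excitatory neurons were mostly higher in trained animals, with 12 of 15 above 0 and a median change of 0.19, beside 53.6% and 0.02 over all genes. The mean of the list was -0.16, -0.15 and -0.26 in the controls and 0.05, 0.14 and -0.13 in the trained arrays. The groups did not overlap, but trained 3 came close to the controls. FEZF2, which specifies deep-layer projection neurons, had 0.72 ± 0.32, NEUROD6 0.59 ± 0.37 and the vesicular glutamate transporter SLC17A7 0.33 ± 0.39, the last 0.01 without trained 2. CUX2, a marker of upper layers and 1 of the 4 high-signal members, lay the other way at -0.34 ± 0.21 without overlap of the groups. FOXP2, a deep-layer factor, had 0.42 ± 0.26, but only 2 of its 4 usable probe sets were above 0.

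GABA neuron markers showed no common direction, with 5 of 12 higher and a median of -0.05. The neuropeptides VIP and TAC3 had -0.45 ± 0.26 and -0.29 ± 0.18, and the GABA-making enzymes GAD1 and GAD2 had -0.21 ± 0.25 and -0.26 ± 0.39, with each of their 3 and 2 probe sets below 0. GAD1 had 0.06 without trained 3 and GAD2 0.12 without trained 1. PVALB, of fast-spiking cells, had 0.03 ± 0.46.

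Glial lists differed among themselves. Oligodendrocyte markers had a median of 0.22 with 8 of 10 higher, among them the myelin genes MAL at 0.49 ± 0.37, UGT8 at 0.35 ± 0.33 and MBP at 0.26 ± 0.49. Their list means were -0.36, -0.004 and 0.01 in the controls and 0.31, -0.16 and -0.07 in the trained arrays. Only trained 1 was high and only control 1 low. Without trained 1 the median was -0.03 and UGT8 had -0.02, and without control 1 MBP had 0.002. Precursor markers had a median of 0.14 with 7 of 8 higher (0.07 without trained 2), the exception being CSPG4, the NG2 proteoglycan, at -0.49 ± 0.19. Both of its usable probe sets lay below 0, at -0.51 ± 0.27 and -0.48 ± 0.25. Astrocyte markers had a median of 0.04 with 7 of 13 higher, and GFAP, their filament protein, had -0.04 ± 0.19, while the bicarbonate transporter SLC4A4 had -0.44 ± 0.22.

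Microglia and macrophage markers had a median of 0.20 with 13 of 18 higher. CD74, the invariant chain of MHC class II, lay at -1.61, -0.08 and -0.64 in the controls and at 0.36, 0.56 and 0.24 in the trained animals. All trained arrays were higher, and the change of its 1 probe set, with a low signal, was 1.20 ± 0.39. PTPRC, the leukocyte surface phosphatase CD45, had 1.14 ± 0.39 from low-signal probe sets at 1.84 ± 0.68, 1.47 ± 0.68 and 0.11 ± 0.44, beside a floor probe set at -0.79 ± 0.62. CX3CR1 had 1.01 ± 0.57, while AIF1 had -0.43 ± 0.23 and CSF1R -0.22 ± 0.25. The 2 high-signal members, CD68 and IRF8, lay below 0 at -0.07 ± 0.18 and -0.26 ± 0.21. Markers of T cells, natural killer cells and granulocytes had a median of 0.13 with 9 of 13 higher, and their list means, -0.08, -0.02 and -0.15 in controls and 0.12, -0.01 and 0.09 in trained arrays, did not overlap. KLRD1, a receptor of natural killer cells, had 0.61 ± 0.35, but 0.08 with high and middle signals only.

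Vessel wall and meningeal markers leaned lower. All 10 measured markers of pericytes and smooth muscle were below 0, with a median of -0.19, from -0.01 ± 0.51 for LMOD1 to -0.56 ± 0.64 for CNN1, and CSPG4 again among them. Their list means were -0.06, 0.11 and -0.02 in the controls and -0.58, -0.07 and -0.05 in the trained arrays. Only trained 1 lay far from the controls, and without it the median was -0.02 and CNN1 had 0.22. Of the meningeal and fibroblast markers 2 of 15 were higher, with a median of -0.23, and again trained 1 was the low array, at -0.51 against 0.07 and -0.03 in the other trained arrays and -0.10 to 0.11 in the controls. Collagen COL1A2 had -0.53 ± 0.88 and COL6A1 -0.41 ± 0.39, while the proteoglycan BGN had 0.56 ± 0.25, from 2 probe sets of opposite sign. Without trained 1 the median was -0.07 and COL1A2 had 0.16. This is the array with the high HBA value and the high oligodendrocyte mean, and the part of tissue content in these lists was not tested.

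Endothelial markers were divided, with 10 of 18 higher and a median of 0.04. FLT1, a receptor for vascular growth factors, had -1.62 ± 0.56 from its 1 usable probe set, but 0.01 with its floor probe set included. The drug pump ABCB1 of the blood-brain barrier lay at 0.20, 0.22 and 0.15 in the controls and at -0.12, -0.20 and -0.70 in the trained animals, with no overlap and a change of -0.52 ± 0.27. Red blood cell genes had the highest list median, 0.52 (4 of 6 higher), and their list means did not overlap (-0.12, 0.02 and 0.03 against 0.49, 0.37 and 0.18). Of these 6 genes, 4 had a low and 2 a middle signal. The globin gene HBA did not separate the groups, at 0.02 in trained 2 and 0.22 in trained 3 against 0.96 in control 2. KLF1, a factor of red cell precursors, had 1.26 ± 0.64. Choroid plexus and ependymal markers had a median of -0.02.

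**Figure D3:**
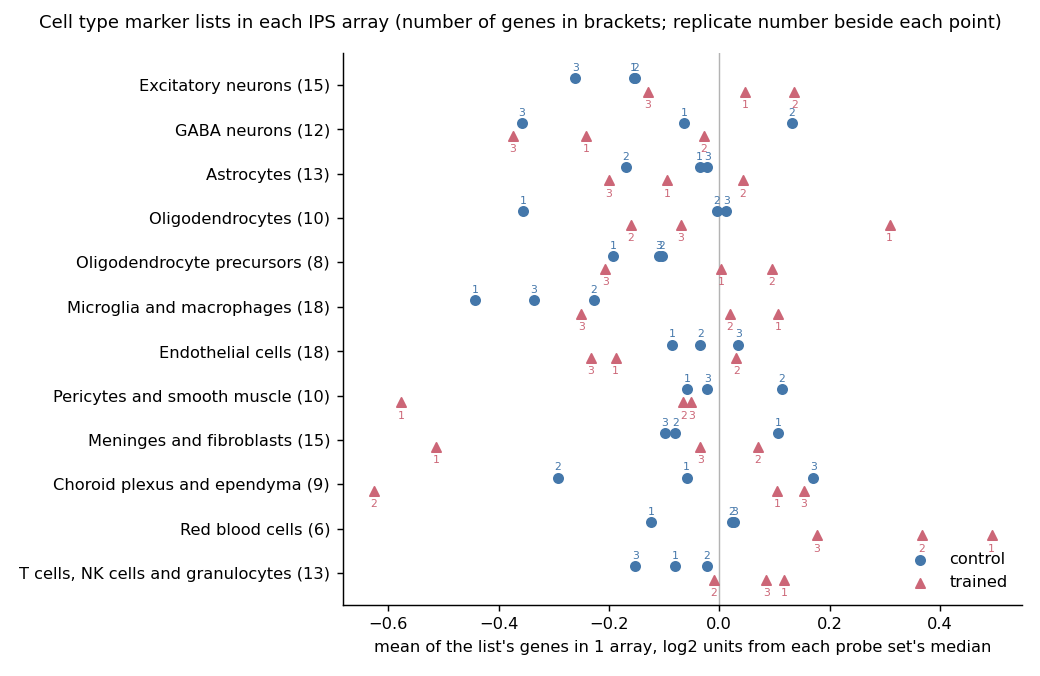
Mean of each cell type list in every IPS array, in log2 units from each probe set's median, for control (circles) and trained (triangles) arrays with replicate numbers. Red blood cell genes (4 of 6 with a low signal) and excitatory neuron genes show trained arrays above all controls. Trained 1 alone lies at -0.58 for pericytes and -0.51 for meninges.

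Axon growth and cytoskeletal plasticity genes were the family with the highest median of all 36, at 0.15, with 20 of 25 higher. Of its members 5 were higher without overlap and 0 lower, beside 4.45% and 3.23% of all genes. High-signal genes made up 18 of the 25, and of all high-signal genes 64.0% were higher. The list means were -0.11, -0.06 and -0.20 in the controls and 0.07, 0.17 and -0.04 in the trained arrays. The groups did not overlap, with trained 3 lowest among the trained. CDC42, a GTPase that steers actin, had all 6 probe sets above 0 and a change of 0.22 ± 0.16. ANK3, the ankyrin of the axon initial segment, had 4 of 4 and 0.23 ± 0.20, GAP43 of growth cones 2 of 2 and 0.27 ± 0.25, and RAC1 2 of 2 and 0.29 ± 0.21. LIMK1 and KALRN, which control actin in spines, had 0.30 ± 0.26 and 0.37 ± 0.25 without overlap, and MAP1B, a microtubule protein, had 0.89 ± 0.53. MAP1B rested on trained 2, at 1.65 against -0.68 and 0.14 in the other trained arrays, and had 0.24 without it.

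PAK1, a kinase downstream of RAC1 and CDC42, had the smallest p of that family (0.0148 in limma, adjusted 0.9996) and a change of 0.61 ± 0.21. Its values were -0.07, -0.37 and -0.43 in the controls and 0.30, 0.51 and 0.10 in the trained animals. They do not overlap, yet the size came from 1 low-signal probe set at 2.51 ± 0.95. Its high-signal probe sets had changes of 0.02 ± 0.19 and 0.09 ± 0.20 and the middle one -0.21 ± 0.69.

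Transport and synapse families leaned the same way with small values. Tubulins, kinesins and dynein had a median of 0.10 with 19 of 25 higher, led by DYNC1LI2, a dynein chain, at 0.21 ± 0.18 over 4 probe sets above 0, and DCTN3 of dynactin at 0.28 ± 0.27. Genes of synaptic vesicle release had a median of 0.12 with 16 of 20 higher. The calcium sensor SYT1 had 0.23 ± 0.20, RAB3A 0.29 ± 0.33 and VAMP2 0.48 ± 0.58, while the complexin CPLX2 had -0.29 ± 0.38. Without control 1 VAMP2 had -0.34, and without trained 1 CPLX2 had 0.04. Postsynaptic density scaffolds had a median of 0.13 with 15 of 17 higher and 0 without overlap, and 0.03 without trained 2. The kinase CAMK2A had 0.55 ± 0.38 and DLGAP3 0.42 ± 0.36. CAMK2A rested on trained 2, at 1.22, against 0.03 and -0.18 in the other trained arrays and 0.05, -0.08 and -0.48 in the controls, and had 0.12 without it.

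Adhesion molecules of the synapse had a median of 0.07 with 20 of 30 higher, and 0.01 without trained 2. CNTN6, a contactin of developing sensory and motor systems, lay at -0.22, -0.06 and -0.02 in the controls and at 0.49, 0.84 and 0.41 in the trained animals. The gap between the groups was wider than the spread within the controls, and the change of its 1 middle-signal probe set was 0.67 ± 0.19 (limma p 0.00477, adjusted p 0.9996). NLGN4X, a neuroligin, had 0.52 ± 0.24 over 3 probe sets that were all above 0. The median of axon guidance genes was 0.03, with 30 of 57 higher. Of these the repellent SLIT1 had 1.20 ± 0.46, or 0.60 without control 3. The membrane ligand EFNB2 had 0.79 ± 0.34, or 0.46 without trained 2, from probe sets at 1.33 ± 0.66 and 0.22 ± 0.26.

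Neurotransmitter receptors had medians near 0. These were -0.03 for AMPA and kainate receptors (4 of 10 higher), -0.06 for NMDA and metabotropic glutamate receptors (1 of 4), -0.05 for GABA receptors (5 of 10) and 0.05 for monoamine, acetylcholine and histamine receptors (20 of 32). The kainate receptor GRIK1 had -0.40 ± 0.22 and the AMPA receptor GRIA4 0.41 ± 0.31, the latter 0.02 with high and middle signals only. The inhibitory scaffold GPHN had -0.19 ± 0.17 with its 3 probe sets all below 0, and the receptor subunit GABRQ had -0.62 ± 0.57, or 0.14 without trained 2.

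The nicotinic acetylcholine receptor genes CHRNB4 and CHRNA5, which lie in 1 gene cluster, went apart. CHRNB4 was at 1.21, 1.33 and 0.51 in the controls and at -0.01, -1.09 and -0.92 in the trained animals, a change of -1.66 ± 0.52. CHRNA5 had 0.66 ± 0.22 from 1 low-signal probe set, and -0.26 with its floor probe set included. Neuropeptides and granins had a median of 0.01 with 7 of 14 higher, a sign that turned under quantile normalization. CARTPT, the CART peptide, had -0.88 ± 0.39, or -0.42 without control 1, and PNOC, of nociceptin, had 0.45 ± 0.21.

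Potassium channels had a median of 0.11 with 34 of 56 higher, and -0.01 without trained 2. KCND1, of the A-type current, had 1.32 ± 0.42 with trained 2 at -1.29, just above the controls at -1.46, -1.40 and -1.62. Its relative KCND2 had 0.68 ± 0.44. Sodium and calcium channels had a median of 0.02 with 12 of 22 higher, and this sign turned under quantile normalization. CACNA1E had 0.97 ± 0.59 and CACNA1D -0.46 ± 0.33, the latter -0.04 without trained 1, which lay at -1.36. Among 12 chloride channels and transporters the median was 0.04. CLCN3 stood at 1 end, and SLC12A1, a chloride importer best known in kidney, at the other with -1.25 ± 0.34 from 2 low-signal probe sets at -1.52 ± 0.81 and -0.99 ± 0.49.

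Immediate early genes, which neurons switch on with activity, leaned lower, with 10 of 28 higher and a median of -0.13, or -0.03 without control 2. The Kruppel-like factors KLF2 and KLF4 had -0.48 ± 0.23 and -0.81 ± 0.59, NR4A1 -0.65 ± 0.51, FOS -0.61 ± 0.49 and the phosphatase DUSP1 -0.51 ± 0.53. Without trained 1 KLF4 had -0.17, NR4A1 -0.29 and DUSP1 0.09. Of genes best known from active synapses, ARC had 0.30 ± 0.57, NPTX2 0.33 ± 0.38 and NPAS4 -0.23 ± 1.83. The phosphatase DUSP4 had 1.14 ± 0.61 from 1 usable probe set, and 0.46 with its floor probe set included. Its groups overlapped, with trained 3 at -0.52. List means were -0.06, 0.15 and 0.05 in the controls and -0.26, 0.16 and -0.15 in the trained arrays, so the groups overlapped. Growth factor genes of the neurotrophin and GDNF families had a median of -0.03 with 8 of 18 higher, RET at 1.68 ± 0.56 and GFRA3 at -1.07 ± 0.60 both coming from 1 low-signal probe set.

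The matrix of perineuronal nets and basement membranes had the lowest family median, -0.17, with 7 of 25 higher. The laminin LAMB1 had -0.44 ± 0.26 without overlap and with both probe sets below 0, the tenascin TNC -0.49 ± 0.37 and the hyaluronan synthase HAS1 -1.22 ± 0.80. Trained 2 lay at -3.05 for HAS1, and without it HAS1 had -0.21 and TNC 0.01. The net components proper were divided. ACAN, the aggrecan core protein, had 0.40 ± 0.48 with 3 of 3 probe sets above 0, VCAN 0.18 ± 0.20 and HAPLN1, the link protein, -0.17 ± 0.23. List means were -0.14, 0.06 and 0.10 in the controls and -0.29, -0.26 and 0.08 in the trained arrays, and without trained 1 the median was 0.03. Metalloproteases and their inhibitors had a median of 0.02 with 15 of 28 higher. MMP9, which cuts matrix around synapses, lay at 0.14, -0.35 and -0.50 in the controls and at 1.75, 0.68 and 1.01 in the trained animals. The groups were well apart, and the change of its 1 probe set was 1.40 ± 0.44, or 2.64-fold (limma p 0.00853, adjusted p 0.9996).

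Energy and housekeeping families, which hold many of the high-signal genes, had medians from 0.03 to 0.11. Glycolysis had 0.11 with 14 of 20 higher, PKM at 0.82 ± 0.54 over 3 probe sets above 0 (0.34 without trained 2) and the lactate carrier SLC16A7 at 0.36 ± 0.20. Complex I had 0.08 with 16 of 25 higher and complexes II to V had 0.08 with 19 of 28, all members of the latter lying between -0.20 and 0.23. Proteasome genes had 0.04 with 18 of 27 higher, chaperones 0.08 with 22 of 36, and cytosolic ribosomal proteins 0.03 with 20 of 34. Without trained 1 the medians were 0.004 for complex I, -0.05 for complexes II to V, -0.05 for the proteasome and -0.03 for chaperones, as in the high-signal probe sets at large. Splicing factors had -0.02 with 18 of 41 higher, HNRNPL at 0.34 ± 0.19 standing out from these.

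Immune families had no common direction. Antigen presentation had a median of -0.10 with 5 of 11 higher, complement 0.08 with 8 of 13 and interferon and inflammation genes -0.05 with 14 of 32. IFI27, an interferon-induced gene, lay at 0.78, 0.51 and 0.37 in the controls and at -0.70, -2.83 and -0.33 in the trained animals. The groups did not overlap, and the change of its low-signal probe set was -1.83 ± 0.58. Complement factor CFI had -0.41 ± 0.17, while C1QB had 0.20 ± 0.16. IKBKE had -0.76 ± 0.30 from 2 probe sets of opposite sign. The median of Wnt genes was -0.02, 19 of 39 being higher. Groups did not overlap for 4 on the higher and 5 on the lower side, beside 4.45% and 3.23% of all genes, with the receptors FZD10 and FZD4 at -0.63 ± 0.20 and -0.38 ± 0.18.

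The 2 lists that serve as a yardstick for genes the cortex hardly uses had medians no smaller than those of most families. Epithelial keratins had 0.14 with 15 of 22 higher, and KRT9, of palm and sole skin, had -1.48 ± 0.48 with both of its low-signal probe sets at -1.36 ± 0.50 and -1.59 ± 0.59. HOX genes had 0.08 with 11 of 19 higher, but the value for the HOX list was -0.60 with high and middle signals only. Among its members HOXB8 had 0.75 ± 0.45, or 0.33 with the median of its probe sets. List medians of 0.08 and 0.14, and a single gene of the size of KRT9 with 2 like-minded probe sets, were thus also seen in lists of genes not tied to this tissue.

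**Figure D4:**
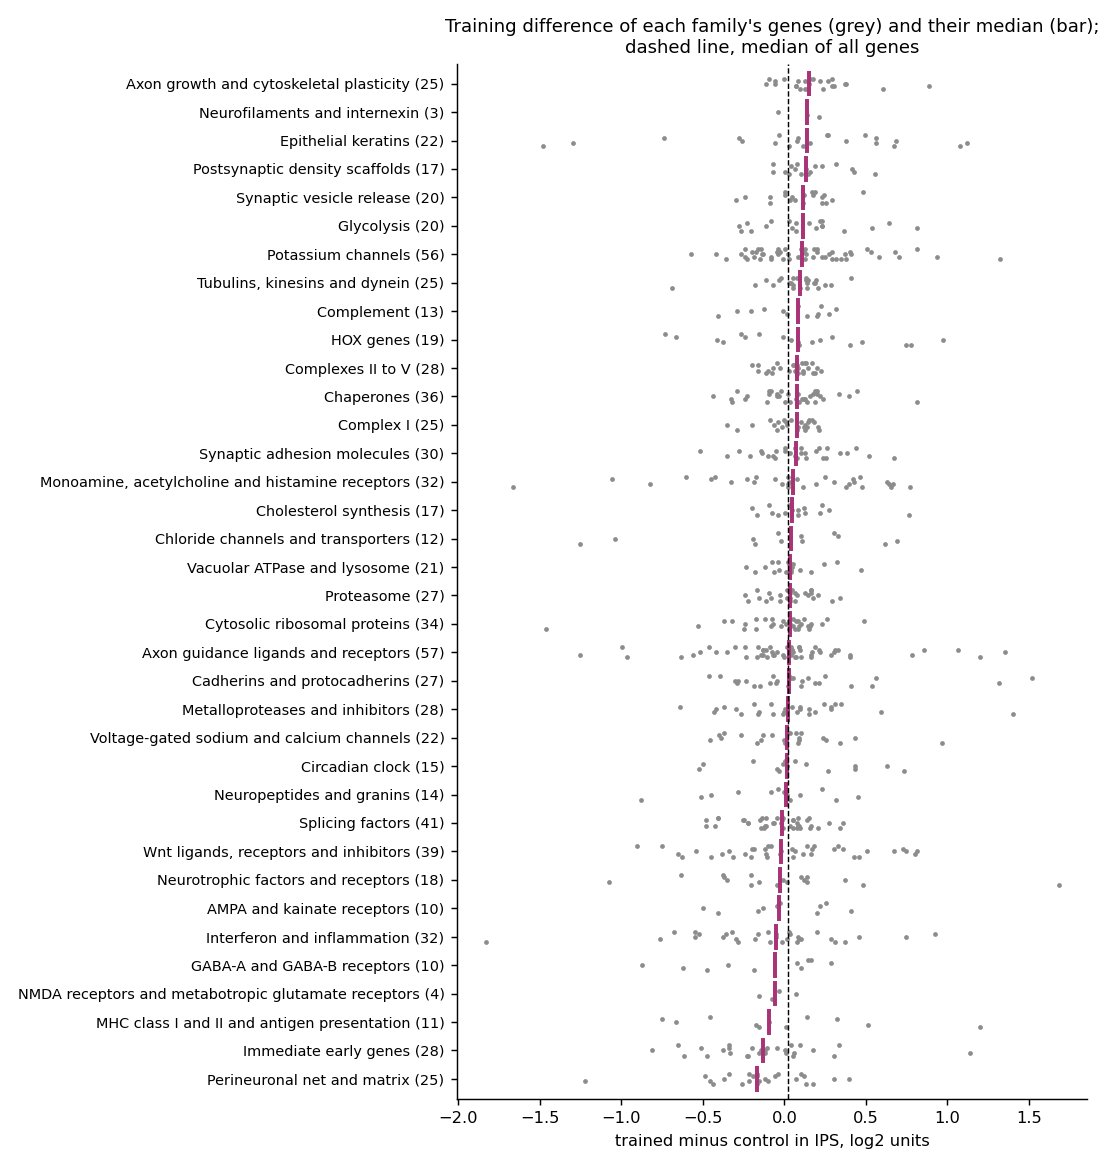
Change (trained minus control in IPS, log2 units) of each measured gene of 36 families (grey points, number of genes in brackets), with each family's median as a bar and the median of all genes, 0.02, as a dashed line. Axon growth genes have the highest median, 0.15, and perineuronal net and matrix genes the lowest, -0.17.

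Across the lists, 34 of 48 list medians were above 0, and in 4 lists (8.33%) the array means did not overlap, beside 7.68% of single genes. A share so near that of all genes is no result about these lists. They were excitatory neurons, red blood cells, T cells with natural killer cells and granulocytes, and axon growth. Of the 25 list genes with an unadjusted p under 0.05, the plot of their arrays shows 15 higher and 10 lower in trained animals. Those with at least 2 usable probe sets on 1 side were CLCN3, PTPRC, EFNB2 and TM7SF2, a sterol reductase at 0.76 ± 0.34, on the higher side and SLC12A1, KRT9 and CSPG4 on the lower. Of these 7, CLCN3, CSPG4, KRT9 and SLC12A1 had probe sets of like size, while TM7SF2 had 0.085 with the median of its probe sets.

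**Figure D5:**
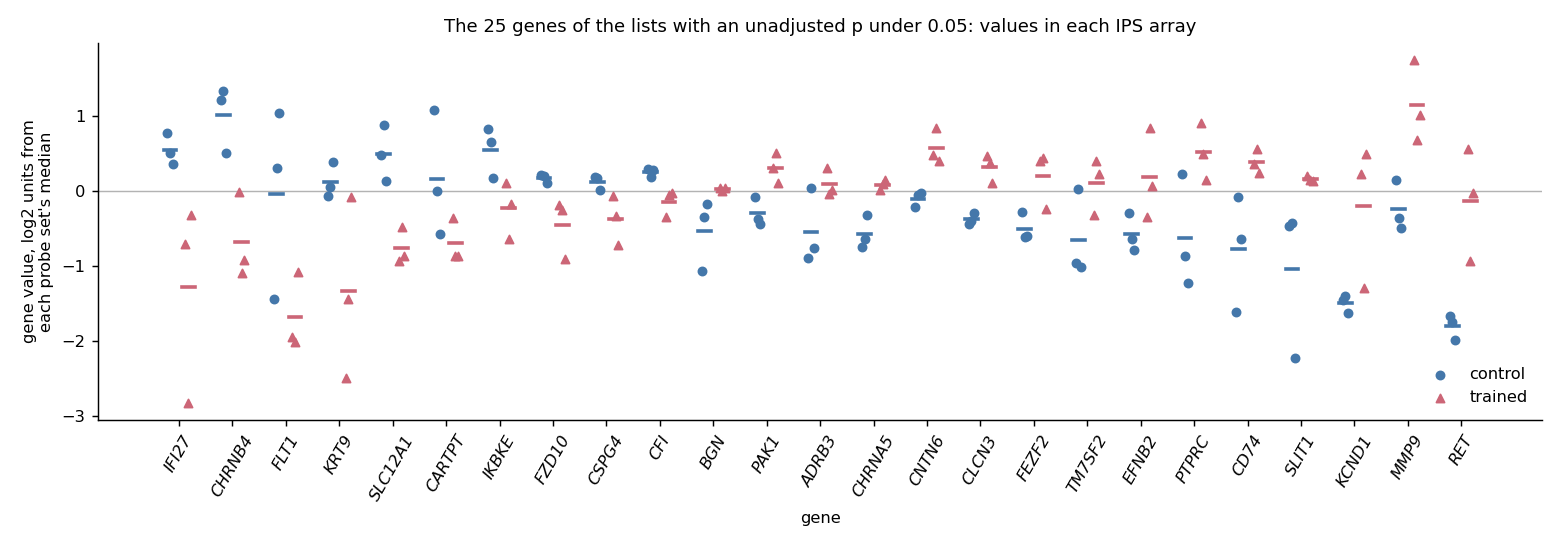
Values of the 25 list genes with an unadjusted limma p under 0.05 in the 3 control and 3 trained IPS arrays, in log2 units from each probe set's median, ordered by their change. RET (1.68) and MMP9 (1.40) stand at the higher end and IFI27 (-1.83) and CHRNB4 (-1.66) at the lower, and no gene among them passed after adjustment.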

How the data were processed

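The authors deposited 1 table of log2 values for 52865 probe sets, centred to a median of 0 over the 12 arrays (largest deviation 2.5e-07). Base 2 was inferred from the values' range. Per the submitters' processing notes MAS5 was the tool, with no version. How arrays were scaled to each other is not given in the sources used. Tissue was extracted with a lipid-tissue kit and labelled as biotinylated cRNA, per the labels' protocols. No sequences were used here.

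Control probe sets (99) were left out. Of the rest, 24956 had 1 gene symbol, 361 several and 27449 none in the array's annotation. Floor values (in 2 or more arrays) were found from differences shared by many probe sets, and signal classes from the spacing of the numbers, holding in 11 of 12 arrays. Probe sets, and genes as the mean of their non-floor probe sets, were fitted over all 12 arrays in limma 3.58.1 (in R 4.3.3, with statmod 1.5.0). The model held 4 group means, an animal correlation (0.0474 for probe sets, 0.109 for genes) and Benjamini-Hochberg adjustment, 2-sided. The procedure was tested on simulated data. The median SE was 0.44 for probe sets and 0.29 for genes, and the number of arrays limits the precision. Named genes were up to 15 per direction by p among those with agreeing probe sets, and 2 per list by p. The genes and lists were chosen with earlier results of these data known. Alternatives covered scaling, weights, age, sex, animal correlation, moderation, filters, gene summaries and each array left out.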

Additional observations from a re-analysis of the deposited data

Results flagged for a closer look

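The groups of CSNK1A1 and PAK1 did not overlap in either region but lay in opposite directions. CSNK1A1 was higher in trained animals in IPS, at 0.29 ± 0.19, and lower around the lateral sulcus, with a mean difference of -0.31. The changes differed by 0.61 ± 0.26 in limma, with an adjusted p of 1.00 over all genes and an unadjusted p of 0.0388. PAK1 had 0.61 ± 0.21 in IPS and a mean difference of -0.55 around the lateral sulcus, and these differed by 1.14 ± 0.28 (unadjusted limma p 0.00218, adjusted 0.948). Neither difference passed. Of 13039 genes, 37 (0.284%) showed opposite directions without overlap in both regions, and 38 showed the same direction.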

How the results depend on the processing

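No probe set or gene passed 5% in any alternative with all 6 IPS arrays. Without trained 1, 2 probe sets passed, 1 of them CLDN18 at -2.96 (adjusted p 0.0337), and with 1 array left out at a time the number passing was 0 to 2. The count with an unadjusted p under 0.05 was 1592 to 3038 probe sets and 317 to 728 genes with 1 array left out (highest without trained 3), 2632 and 601 with array weights and 507 and 195 with high and middle signals only. The count of genes with agreeing probe sets was 17 with high and middle signals only and 85 to 464 with 1 array left out, since groups of 2 overlap less often. With the replicate block 0 passed, with 2372 probe sets and 511 genes under an unadjusted 0.05. Numbers are those of different animals, and same-numbered arrays correlated at -0.03, 0.01 and 0.04.

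Of 2297 values of 129 named genes under the alternatives, 23 in 18 genes had the other sign. None was among the 23 genes with agreeing probe sets. These were selected for probe sets of 1 sign without overlap, which leaves little room for a reversal, so their stable sign is no test. Of these 23 genes, 15 moved by over 1.5 times in at least 1 alternative. With high and middle signals only, BGN had -0.22, PAK1 -0.039, ADAMTS9 0.082, NDUFB6 0.093, RPL30 0.11, SF3B3 0.16, TAPBP -0.049 and HOXD10 -0.045. With all probe sets averaged, FLT1 had 0.012, CHRNA5 -0.26, PCDH7 -0.24, SREBF1 -0.12 and GRIN2C 0.000245. With array weights GRIN3B had 0.017. With 1 array left out, UGT8 ran from -0.023 to 0.66, GRIN3B from -0.28 to 0.19, GRIN2C from -0.58 to 0.52, GABRQ from -1.05 to 0.14, NEFH from -0.035 to 0.40 and PRPH from -0.0025 to 0.29. The causes were not tested. Of 864 list medians under alternatives, 834 moved by less than 1 SD of the list means. That SD was larger than the median in lists such as NMDA and metabotropic glutamate receptors (0.39 beside -0.06), so a median could change sign within it. The count is thus no sign of stability, and 31 of the 48 lists changed sign in at least 1 alternative. The arrays' number and the dimness of many probe sets limit all of these values.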

Other observations

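Of the 23 genes with agreeing probe sets in IPS, 2 also had groups that did not overlap in the same direction around the lateral sulcus. For 1, CSNK1A1, they did not overlap in the opposite direction. Of all 13039 genes, 38 had the same and 37 the opposite direction without overlap in both regions. The 23 genes were selected for not overlapping in IPS, so their share cannot be set against that of all genes. The 2 with the same direction were PPTC7, with a mean difference of 0.76 around the lateral sulcus, and KAT6A, with -0.42. These regions share 4 animals, so the arrays are not independent. The remaining genes of that selection beyond the 15 named higher ones were ZCCHC24 at 0.32 ± 0.36, ARL6IP4, a splicing regulator, at 0.17 ± 0.21, and LIN7A, a synaptic scaffold protein, at 0.26 ± 0.35, all higher in trained animals in at least 2 probe sets without overlap.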
